A study of Mus musculus with 42 samples.

Results

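Wnt proteins, their surface receptors and the secreted proteins that modulate them were followed through 28 days of hepatic differentiation of mouse pluripotent cells. The set was defined by gene name. It held every gene on the array called Wnt, Fzd, Sfrp, Dkk or Rspo with a number and at most 1 letter, plus Frzb, Wif1, Lrp5 and Lrp6. This gave 45 genes of 19057 with a probe of a single symbol: 19 Wnt ligands, 10 Frizzled receptors, 2 co-receptors, 4 R-spondins and 10 secreted antagonists. They were read by 76 probes, and 1 probe stood for each gene.

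Total RNA of 42 samples had been hybridised to Illumina expression arrays, 1 array per sample. ES (embryonic stem) cells, GPSC-A and GPSC-B had each been sampled untreated (day 0) and after 2, 7, 14, 21 and 28 days as embryoid bodies, which are floating cell aggregates, in a hepatic differentiation cocktail (2 arrays per group). The GPSC lines are pluripotent cells derived from germline cells, and A and B are called lots in the labels. The reference was primary liver hepatocytes, from E16 embryos and, as PN1, from animals 1 day after birth (3 arrays each). The sources used here do not give the strain, the medium, the content of the cocktail or whether replicates were separate cultures or animals. The spread between replicates, on which each p-value below rests, may therefore be technical.

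Wnt ligands are lipid-bound secreted proteins that bind a Frizzled receptor. With the co-receptor Lrp5 or Lrp6 they stabilise beta-catenin, which enters the nucleus and acts with TCF/LEF factors on target genes such as Axin2. Other ligands, Wnt5a among them, act mainly without beta-catenin, on cell polarity and movement. R-spondins raise the amount of Frizzled on the cell surface, Sfrp proteins and Wif1 bind Wnt ligands, and several Dkk proteins block the co-receptors. In the embryo, Wnt signals are needed for the primitive streak. In the adult liver they come from endothelial cells and set the gene programme of hepatocytes around the central vein.

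Promoters of 4 genes are shown because they bracket the patterns described below. Wnt3a is the ligand lost by day 2, Wnt4 the ligand with the largest rise at day 28, Fzd10 the receptor with the largest fall and Wnt8b a ligand first detected on day 7. Each sequence runs from 250 bases before the annotated start to 50 bases after it, is credited to RefSeq (GRCm38.p6) and has the dinucleotide CG in capitals.
Wnt3a, chr11:59290702-59291001, minus strand: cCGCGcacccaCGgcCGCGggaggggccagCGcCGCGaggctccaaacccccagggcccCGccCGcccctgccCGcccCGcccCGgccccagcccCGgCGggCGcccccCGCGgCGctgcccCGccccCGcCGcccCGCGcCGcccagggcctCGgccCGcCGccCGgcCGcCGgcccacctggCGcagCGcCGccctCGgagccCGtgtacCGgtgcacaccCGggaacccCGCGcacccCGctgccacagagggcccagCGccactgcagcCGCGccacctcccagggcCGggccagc
Wnt4, chr4:137277385-137277684, plus strand: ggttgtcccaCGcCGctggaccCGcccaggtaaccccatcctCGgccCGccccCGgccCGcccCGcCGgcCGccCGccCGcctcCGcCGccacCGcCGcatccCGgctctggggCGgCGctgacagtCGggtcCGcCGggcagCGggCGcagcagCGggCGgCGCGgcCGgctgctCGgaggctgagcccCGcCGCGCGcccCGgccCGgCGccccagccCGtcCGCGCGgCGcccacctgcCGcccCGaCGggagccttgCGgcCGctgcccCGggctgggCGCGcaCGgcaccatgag
Fzd10, chr5:128600856-128601155, plus strand: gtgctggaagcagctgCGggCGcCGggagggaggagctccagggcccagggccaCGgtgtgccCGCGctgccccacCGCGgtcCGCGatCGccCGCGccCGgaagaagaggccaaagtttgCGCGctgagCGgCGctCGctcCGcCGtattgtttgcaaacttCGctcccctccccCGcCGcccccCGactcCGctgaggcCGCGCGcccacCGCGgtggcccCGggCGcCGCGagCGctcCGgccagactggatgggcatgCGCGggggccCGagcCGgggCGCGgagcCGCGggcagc
Wnt8b, chr19:44493222-44493521, plus strand: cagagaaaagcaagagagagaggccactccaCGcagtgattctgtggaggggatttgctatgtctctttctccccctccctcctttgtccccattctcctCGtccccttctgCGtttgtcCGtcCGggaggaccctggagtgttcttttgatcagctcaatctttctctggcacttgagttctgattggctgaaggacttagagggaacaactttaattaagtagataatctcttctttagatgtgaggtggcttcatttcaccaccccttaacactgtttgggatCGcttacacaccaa
The Wnt3a, Wnt4 and Fzd10 windows held 45, 51 and 45 CG dinucleotides, and the Wnt8b window held 6. Over the 29 genes of the set that were matched to a promoter window, the 32 windows held 4 to 58 (median 26.5). The median was 7.0 in 32851 mouse promoter windows. Both strands were searched for TCF/LEF words, which were CTTTGAA and its variant CTTTGAT and, with a different ending, the word CTTTGTA and its variant CTTTGTT. At least 1 of them was in 5 of the 32 windows (15.625%) and in 16.876% of all promoter windows, and in 0 of the 4 shown. A match describes letters only.

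The arrays detected 8427 to 15123 of 45281 probes at a detection p under 0.01. The lowest detected signal of an array lay between 5.43 and 7.33 on the normalised log2 scale used throughout, so values in that range are close to background. Replicate arrays correlated at 0.950 to 0.982 across genes. Of 9 hepatocyte markers, E16 arrays detected 8 and PN1 arrays 3 (Apoa1, Serpina1b and Hnf4a), with Alb not detected on PN1 arrays although the label is hepatocyte. Erythroid markers were high in both hepatocyte groups (summed linear signals of 75584 to 81842 in E16 and 85664 to 88027 in PN1). In these bulk samples, fewer cells of a type and less RNA per cell cannot be told apart.

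A broad Wnt repertoire was detected in the cultures and hardly any of it in the hepatocytes. Between 10 and 22 of the 45 genes were detected on each culture array, 2 or 3 on each E16 array and 1 on each PN1 array. Of all probes, 21.8 to 33.4% were detected on culture arrays, 21.8 to 25.5% on E16 arrays and 18.6 to 20.5% on PN1 arrays. The lowest detected signal was 6.98 to 7.33 on PN1 arrays, so weak signals found on culture arrays could be missed there. Fzd5, a receptor of the beta-catenin branch, was the gene detected on all 42 arrays. Wnt4, Wnt5a, Wnt7b, Fzd2 and Fzd7 were detected on all 36 culture arrays, and the last 4 of these on none of the 6 hepatocyte arrays. The heat map of group means shows these rows bright across the culture columns.

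**Figure D1:**
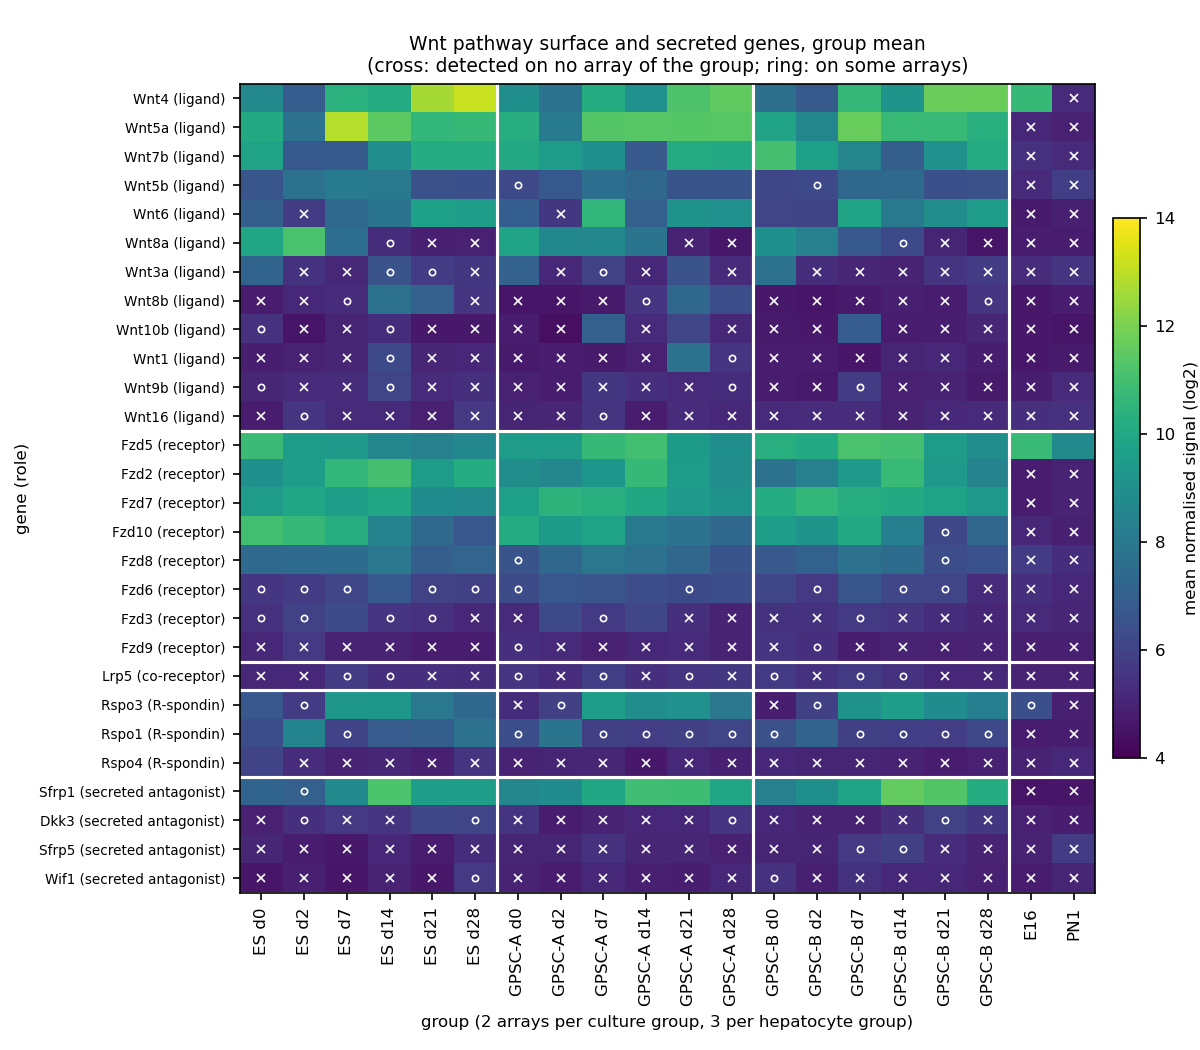
Mean normalised signal (log2, colour) of the 28 genes that passed the detection filter, in rows ordered by role, in each of the 20 groups (columns; 2 arrays per culture group and 3 per hepatocyte group). A cross marks detection on no array of the group and a ring on some; the E16 and PN1 columns are crossed in all rows but Fzd5, Wnt4 (E16) and Rspo3 (ring in E16).

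A gene entered the tests when detected on at least 2 arrays, and 28 of the 45 did so: 12 ligands, 8 receptors, 1 co-receptor, 3 R-spondins and 4 antagonists. Dkk1 and Wnt3 were each detected on 1 array. The chosen probes of Wnt2, Wnt2b, Wnt7a, Wnt9a, Wnt10a, Wnt11, Fzd1, Fzd4, Lrp6, Rspo2, Dkk2, Dkk4, Sfrp2, Sfrp4 and Frzb were detected on 0 arrays, which says only that their signal did not exceed the negative controls. The 28 are not the whole family, and a gene that passed only through the group where it is high had to differ, so the counts below describe and do not support.

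Each day was compared with day 0 as the mean of the changes of the 3 lines (6 arrays against 6), in a limma model over all 10879 genes. Called genes are those that changed 2-fold or more with a p under 0.05 after Benjamini-Hochberg adjustment over all genes. On day 2, 5 of the 28 genes were called, 1 higher and 4 lower, where 5.42% of all genes were called (1.49% higher, 3.93% lower). On day 7 there were 8 higher and 3 lower (13.3% of all genes, 6.66% and 6.64%). On day 14 there were 7 higher and 4 lower (23.4%, 12.6% and 10.8%). On day 21 there were 6 higher and 4 lower (30.7%, 16.1% and 14.6%), and on day 28 there were 5 higher and 4 lower (33.1%, 17.1% and 16%).

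The share of the 28 genes called was thus 17.9% on day 2, 39.3% on days 7 and 14, 35.7% on day 21 and 32.1% on day 28. The last of these lies near its background. The median change of the 28 was -0.05, 0.29, 0.27, 0.04 and 0.08 on the 5 days (log2), beside 0.03, 0.01, 0.01, 0.02 and 0.03 over all genes. In all, 16 of the 28 were called on at least 1 day. Wnt3a and Wnt4 were called on all 5, and Wnt4 and Wnt5a in both directions.

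Wnt3a and Wnt8a, ligands of the beta-catenin branch that act at the primitive streak of the embryo, were detected on the day 0 arrays of all 3 lines and fell afterwards. Wnt3a lay between 6.38 and 8.06 on the 6 day 0 arrays (median 7.51) and between 5.12 and 5.47 on day 2 (median 5.30). All 6 arrays detected it on day 0 and 0 on day 2, and the values did not overlap. The change was at least 2.41-fold lower (log2 -2.06 ± 0.30, here and below the SE of the fit, limma adjusted p = 1.165e-05).

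Wnt3a stayed close to background afterwards, but not on every array. It was called lower on all 5 days, at -1.97 ± 0.30 on day 7, -1.80 ± 0.30 on day 14, -1.40 ± 0.30 on day 21 and -1.84 ± 0.30 on day 28. One ES array of day 14 stood at 7.78 and the other at 5.35, and the GPSC-A arrays of day 21 stood at 6.10 and 7.04, so on those days the values overlapped with day 0. On day 28, where 0 arrays detected it, the level was at least 2.70-fold lower. All day comparisons share the same day 0 arrays.

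Wnt8a went down later and further. Its values ran from 8.89 to 10.18 on day 0 (median 9.65), 7.85 to 11.45 on day 2 (median 9.03), 6.34 to 9.13 on day 7 (median 7.61) and 5.01 to 8.20 on day 14 (median 6.25). On days 21 and 28 they lay between 4.56 and 5.27 and no array detected it. The change was -1.90 ± 0.23 on day 7 and -3.12 ± 0.23 on day 14. It was at least 13.3-fold lower on day 21 (adjusted p = 6.11e-16) and at least 12.6-fold lower on day 28 (adjusted p = 1.479e-16), with no overlap with day 0 in either.

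The lines did not move together in Wnt8a on day 2. Both ES arrays were higher (10.84 and 11.45, from 10.18 and 9.63), while both GPSC-A arrays (9.19 and 8.15, from 10.04 and 9.67) and both GPSC-B arrays (8.88 and 7.85, from 9.14 and 8.89) were lower. On day 14 GPSC-A still gave 8.20 and 7.52, above the 5.62 and 5.01 of ES. Neither difference between lines was tested.

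Wnt4, a ligand needed for kidney and female gonad development, rose most of all 28 genes by day 28. It lay between 7.30 and 9.22 on day 0 (median 8.62), 6.58 and 8.44 on day 2 (median 7.08), 9.47 and 10.91 on day 7 (median 10.51) and 8.97 and 10.35 on day 14 (median 9.26). The 6 arrays reached 10.83 to 12.69 on day 21 (median 11.70) and 11.14 to 13.21 on day 28 (median 12.08). From day 21 on every array was above every day 0 array, and the ES arrays of day 28, at 13.10 and 13.21, were the highest.

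Its change on day 2 was a fall of 1.27 ± 0.26 (log2, adjusted p = 0.0008716). Rises followed of 1.96 ± 0.26 on day 7, 1.02 ± 0.26 on day 14, 3.41 ± 0.26 on day 21 and 3.71 ± 0.26 on day 28 (adjusted p = 9.16e-13). By line, the day 28 change was 4.45 ± 0.45 for ES, 2.60 ± 0.45 for GPSC-A and 4.07 ± 0.45 for GPSC-B. The day 14 value lies at the 2-fold limit: without ES day 14 replicate 2 it was 0.95 and not called. A second Wnt4 probe gave 3.44 ± 0.29 on day 28 and -0.82 ± 0.29 on day 2, the latter not called (adjusted p = 0.06506).

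Wnt5a, the main ligand of the polarity branch, fell on day 2 and peaked on day 7. Its range was 9.72 to 10.51 on day 0 (median 9.99), 7.60 to 9.19 on day 2 (median 8.06), 10.82 to 12.98 on day 7 (median 11.94) and 10.72 to 11.79 on day 14 (median 11.26). On days 21 and 28 it ran from 10.06 to 11.79, overlapping with day 0. The change was -1.90 ± 0.24 on day 2 (adjusted p = 9.291e-07), 1.91 ± 0.24 on day 7 (adjusted p = 3.029e-07) and 1.15 ± 0.24 on day 14 (adjusted p = 0.00022), with no overlap in these 3 comparisons. A second Wnt5a probe, detected on 2 arrays, was called in none of them.

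Wnt5b, a close relative of Wnt5a, rose on days 7 and 14. It lay between 6.0 and 6.79 on day 0, 6.86 and 8.43 on day 7 (change 1.35 ± 0.22, adjusted p = 1.543e-05) and 7.30 and 8.11 on day 14 (1.27 ± 0.22, adjusted p = 1.913e-05), without overlap. On day 28 it was back at 5.95 to 7.24.

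Wnt6, an epithelial ligand known from surface ectoderm, was low at first and rose for good from day 21. The day 0 arrays gave 6.04 to 7.69 (median 6.53), the day 2 arrays 5.17 to 6.32 (median 5.75, 2 of 6 detected), the day 21 arrays 8.61 to 10.37 (median 9.16) and the day 28 arrays 8.72 to 10.14 (median 9.42). The change was 2.57 ± 0.28 on day 21 and 2.69 ± 0.28 on day 28 (adjusted p = 1.907e-09), with all late arrays above all day 0 arrays. On day 7 the change was 2.59 ± 0.28 (adjusted p = 1.757e-08) but with overlap, and the ES change was 0.39 ± 0.48. On day 14 the arrays gave 7.06 to 8.50 (change 0.96 ± 0.28, not called).

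Wnt7b, another epithelial ligand, followed a dip and a recovery. Its range was 9.14 to 11.38 on day 0 (median 10.26), 6.33 to 9.88 on day 2 (median 9.34), 6.41 to 9.03 on day 7 (median 8.55) and 6.28 to 8.99 on day 14 (median 7.40). By day 28 it was at 9.52 to 10.84 (median 10.04), inside the day 0 range. The change was -1.64 ± 0.31 on day 2, -2.17 ± 0.31 on day 7 and -2.72 ± 0.31 on day 14 (adjusted p = 2.996e-08), and it was not called on days 21 and 28.

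The days of lowest Wnt7b were not the same in each line, a difference tested on day 7 alone. The ES arrays were down on day 2 (6.33 and 7.19) and day 7 (6.41 and 7.24) and back at 8.99 and 8.83 on day 14. GPSC-A was lowest on day 14 (7.30 and 6.28), as was GPSC-B (6.57 and 7.50). On day 7 the GPSC change exceeded that of ES by 1.18 ± 0.66, which was not called (limma adjusted p = 0.5575).

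**Figure D2:**
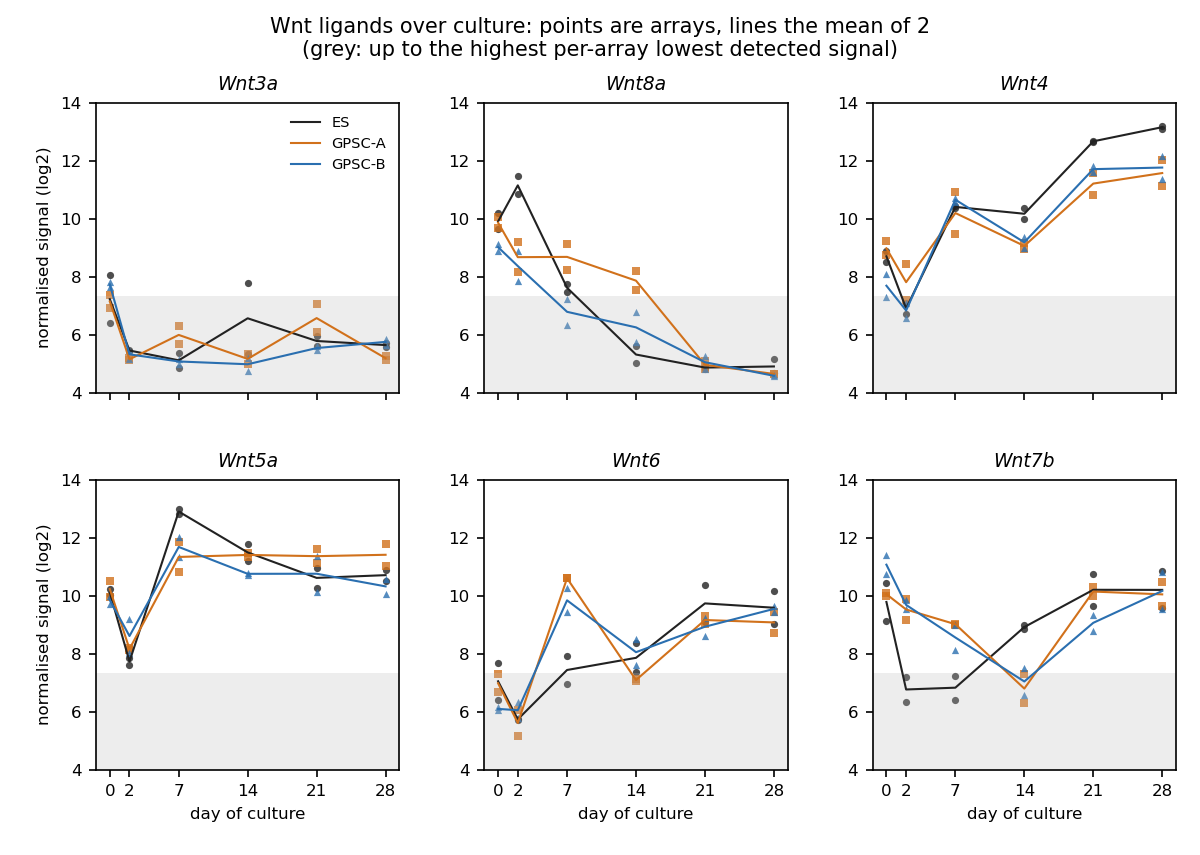
Normalised signal (log2) of 6 Wnt ligands against day of culture, 1 point per array and a line through the mean of 2 for ES, GPSC-A and GPSC-B; the grey band ends at the highest of the per-array lowest detected signals, 7.33. Wnt3a and Wnt8a drop into the band, Wnt4 and Wnt5a dip on day 2 before rising, and Wnt7b is lowest on days 2 to 14. Wnt6 rises on day 7 in the GPSC lines and later in ES (its day 2 change over the lines, -0.91 ± 0.28, was not called).

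The day 2 falls of Wnt3a, Wnt4, Wnt5a and Wnt7b came with a fall in fibroblast, stellate or feeder markers. The summed linear signal of the 11 markers was 41330 to 50736 on day 0, 1422 to 3055 on day 2, 39371 to 50567 on day 7 and 61163 to 83110 on day 28. On day 2, 6 of the 11 were detected on any array, and Col1a2, Col3a1, Postn, Pdgfra and Pdgfrb were on none. The late rise of Wnt4 and Wnt6 came with surface ectoderm markers (Krt5, Krt14, Krt15, Trp63 and Perp), whose sum was 153 to 200 on day 0 and 1020 to 7895 on day 28, with 4 of 5 detected and Perp on no array. The part of these cells in the results was not tested.

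Wnt8b, Wnt10b and Wnt1, ligands known from the developing brain (Wnt10b also from fat and bone), appeared in some lines and days only. Wnt8b was not detected on days 0 and 2. It reached 8.51 and 6.95 in ES on day 14, 6.85 and 7.30 in ES on day 21 and 7.73 and 6.98 in GPSC-A on day 21, while the GPSC-B arrays of day 21 gave 5.05 and 4.50. Over the 3 lines the change was at least 1.10-fold on day 14 and at least 1.40-fold on day 21, and on day 28 it was called from values too near background for a bound (fitted change 1.18 ± 0.26), but not without GPSC-B day 28 replicate 2 (0.89).

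Wnt10b was present on day 7 in the GPSC lines. GPSC-A gave 7.19 and 6.97 and GPSC-B 7.20 and 6.59, against 4.68 to 4.87 on their day 0 arrays. On that day 6 of the 28 genes were called in GPSC-A and 11 in GPSC-B, where 8.52% and 11.9% of all genes were. Wnt10b was at least 1.94-fold higher in GPSC-A (adjusted p = 2.256e-05) and at least 2.19-fold in GPSC-B (adjusted p = 2.805e-05). In ES it was at 5.19 and 4.91 on day 7 and not detected. Wnt1, a neighbour of Wnt10b in the genome, was detected on both GPSC-A arrays of day 21, at 7.92 and 7.60 (at least 3.11-fold higher than day 0, adjusted p = 3.456e-06), where 10 of the 28 and 25.7% of all genes were called in that line. The other lines had 0 detections of Wnt1 on that day, and ES had 1 on day 14 (7.30). The other 2 tested ligands, Wnt9b and Wnt16, were detected on 4 and 2 arrays and called on no day.

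Fzd10 was the receptor with the largest change. It lay between 9.37 and 11.17 on day 0 (median 10.16), 8.90 and 10.83 on day 2 (median 9.48), 9.50 and 10.50 on day 7 (median 10.02) and 7.63 and 8.48 on day 14 (median 8.46). It then lay between 5.37 and 8.20 on day 21 (median 7.39) and 6.35 and 8.22 on day 28 (median 6.99). From day 14 on every array was below every day 0 array. It fell by 1.97 ± 0.29 on day 14, by 3.09 ± 0.29 on day 21 and by 3.13 ± 0.29 on day 28 (log2, adjusted p = 2.705e-10). Both other probes of Fzd10 were called lower on these days, at -2.48 ± 0.25 and -2.03 ± 0.22 on day 28.

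Fzd2 moved the opposite way and only for a time. It lay between 7.25 and 9.08 on day 0 (median 8.89), 9.15 and 10.76 on day 7 (median 9.37), 10.48 and 11.25 on day 14 (median 10.89) and 8.44 and 10.31 on day 28 (median 8.95). It rose by 1.18 ± 0.23 on day 7 (adjusted p = 0.0001873) and by 2.27 ± 0.23 on day 14 (adjusted p = 2.809e-09), on both days without overlap with day 0. On days 21 and 28 it was not called over the 3 lines.

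Fzd5 separated the lines. In ES it stood at 10.62 and 10.99 on day 0 and then at 9.50 and 9.22 on day 7, 8.37 and 8.78 on day 14 and 8.58 and 8.73 on day 28. In GPSC-A it went from 9.61 and 9.48 to 10.18 and 11.20 on day 7 and 11.09 and 10.83 on day 14. In GPSC-B it went from 10.40 and 10.20 to 11.22 and 11.07 and then 11.48 and 10.56. On days 7 and 14 each ES array was thus lower than both of its day 0 arrays and each GPSC array higher than both of its own. The day 14 difference was not tested.

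Late in culture Fzd5 was lower over the 3 lines, by -1.12 ± 0.20 on day 21 and -1.36 ± 0.20 on day 28 (adjusted p = 1.393e-06, no overlap on day 28). A second Fzd5 probe, detected on 9 arrays, gave -1.14 ± 0.22 and -1.07 ± 0.22, and was also called lower on day 14 (-1.06 ± 0.22), when the first probe was not called.

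Fzd7, a main Frizzled of pluripotent cells, was detected on all culture arrays and was called on no day. It lay between 9.13 and 10.22 on day 0 (median 9.87), 9.43 and 10.79 on day 2 (median 10.46), 9.48 and 10.46 on day 14 (median 10.05) and 8.64 and 9.34 on day 28 (median 9.15). Fzd8 ran from 5.66 to 8.35 over all culture arrays, and Fzd6 and Fzd3 stayed near background and were detected on 24 and 12 arrays. Fzd9 and the co-receptor Lrp5 were detected on 2 and 8 arrays. None of these 5 was called on any day.

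Rspo3 rose in all 3 lines. It lay between 4.66 and 7.12 on day 0 (median 5.46, 2 of 6 detected), 5.35 and 6.41 on day 2 (median 5.91), 8.93 and 9.72 on day 7 (median 9.40) and 8.68 and 9.74 on day 14 (median 9.27). It was still between 7.61 and 9.36 on day 21 (median 8.74) and 7.20 and 8.56 on day 28 (median 7.88). From day 7 on every array lay above every day 0 array. The change was 3.72 ± 0.23 on day 7 (adjusted p = 3.012e-13), 3.64 ± 0.23 on day 14, 3.02 ± 0.23 on day 21 and 2.27 ± 0.23 on day 28 (adjusted p = 1.581e-09).

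Measured as bounds, the day 7 rise of Rspo3 was at least 11.2-fold in GPSC-A and at least 10.2-fold in GPSC-B, whose day 0 arrays did not detect it. A second Rspo3 probe was called higher on the same 4 days with smaller changes, 1.81 ± 0.24 on day 7 and 1.19 ± 0.24 on day 28.

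Rspo1 was raised on day 2. It lay between 5.79 and 7.21 on day 0 (median 6.42) and 6.52 and 8.60 on day 2 (median 8.05), with overlap. The change was 1.42 ± 0.29 (adjusted p = 0.0008939), and by line it was called in ES (2.11 ± 0.51), where 7 of the 28 genes and 8.12% of all genes were called. Under median scaling of the arrays the Rspo1 call was lost (1.23, limma adjusted p = 0.0628). Rspo4 was detected on the 2 untreated ES arrays (5.44 and 6.63) and nowhere else.

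Sfrp1, a secreted Wnt-binding antagonist, rose and peaked on day 14. It lay between 6.80 and 8.78 on day 0 (median 8.35), 6.19 and 9.29 on day 2 (median 8.73), 8.68 and 10.49 on day 7 (median 9.53) and 10.37 and 11.66 on day 14 (median 11.44). It then lay between 9.48 and 11.33 on day 21 (median 10.88) and 9.29 and 10.36 on day 28 (median 9.92). All arrays from day 14 on were above the day 0 arrays. The change was 1.41 ± 0.24 on day 7, 3.18 ± 0.24 on day 14 (adjusted p = 9.113e-12), 2.52 ± 0.24 on day 21 and 1.82 ± 0.24 on day 28.

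A second Sfrp1 probe gave 3.03 ± 0.25 on day 14 and 1.34 ± 0.25 on day 28, both called. The other tested antagonists stayed near background. Dkk3 was detected on 6 arrays, all of them cultures and 3 of them ES on days 21 and 28 (5.92, 6.43, 6.10 and 6.05 on the 4 arrays of those days). Sfrp5 and Wif1 were detected on 2 arrays each, and none of the 3 was called over the lines on any day.

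**Figure D3:**
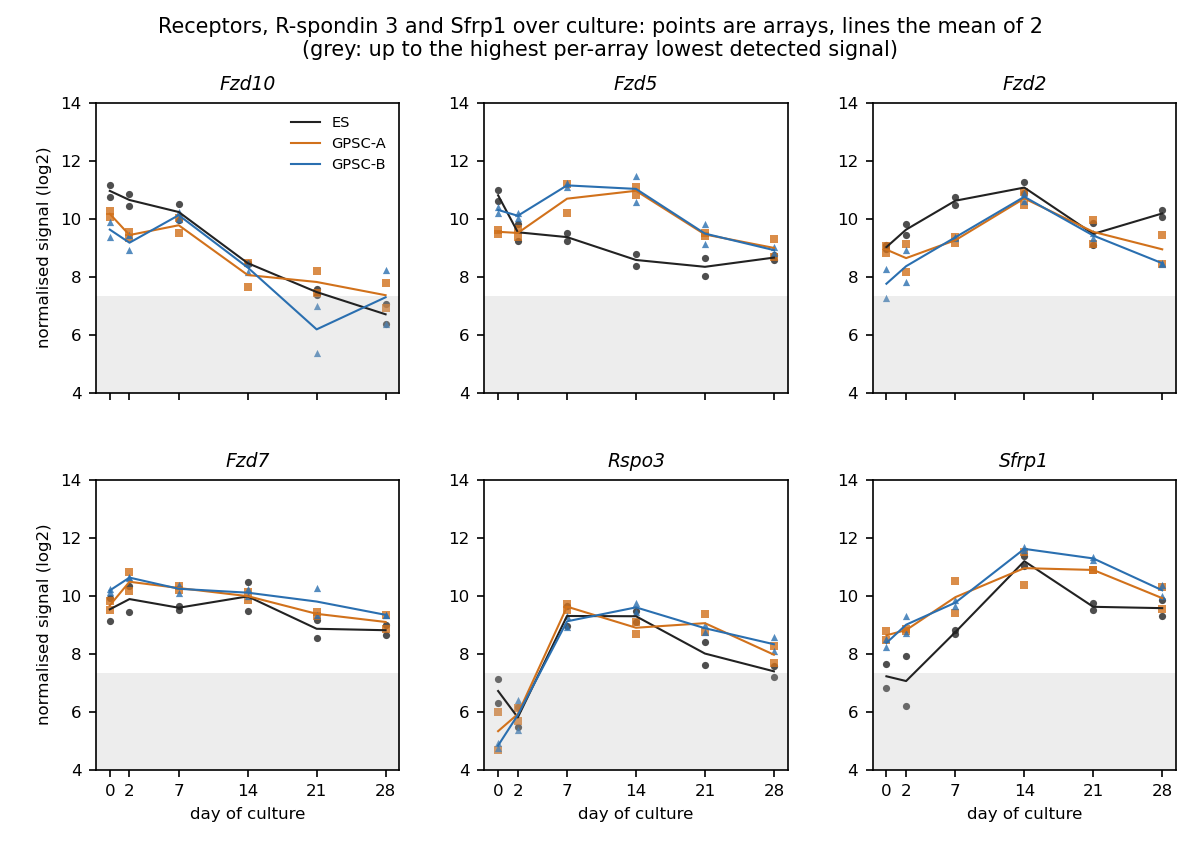
Normalised signal (log2) of 4 Frizzled receptors, Rspo3 and Sfrp1 against day of culture, 1 point per array and a line through the mean of 2 for each line; the grey band ends at 7.33. Fzd10 descends from above 9 to the band, Fzd5 separates ES from the GPSC lines on days 7 and 14, and Rspo3 leaves the band on day 7.

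The next question was whether the GPSC lines changed like ES cells. The difference between the mean GPSC change and the ES change was tested as an interaction on days 7 and 28. On day 7, 4 of the 28 genes were called higher and 0 lower (limma; 2 lower at an unadjusted p under 0.05), where 3.64% of all genes were called (1.85% higher, 1.79% lower). Wnt6 had moved from 6.66 and 7.29 to 10.60 and 10.59 in GPSC-A and from 6.04 and 6.14 to 9.42 and 10.25 in GPSC-B, but from 6.40 and 7.69 to 6.96 and 7.90 in ES.

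The GPSC rise of Wnt6 exceeded that of ES by 3.29 ± 0.59 (adjusted p = 0.0005124). It was 3.94 without ES day 0 replicate 1 and 2.65 without ES day 0 replicate 2. For Wnt10b the fitted excess was 2.60 ± 0.41 (adjusted p = 0.0001269). It rests on groups where Wnt10b was not detected, the 4 GPSC arrays of day 0 and the 2 ES arrays of day 7, so its size is no measured difference. For Fzd5 the excess was 2.44 ± 0.43 (adjusted p = 0.0004655), which a second Fzd5 probe gave as 2.42 ± 0.47. For Rspo3 the excess was 1.70 ± 0.49 (adjusted p = 0.04674), a call lost without any of 10 single arrays, at adjusted p-values up to 0.2958, and with the second probe (0.68 ± 0.50). The Rspo3 excess also rests on the 4 GPSC arrays of day 0, where Rspo3 was not detected. With the replicate number as a block within lines 5 genes were called, the added one being Wnt5a, whose change was smaller in the GPSC lines than in ES (-1.32 ± 0.39, adjusted p = 0.03777 against 0.1983 without the block).

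Primitive streak markers (Mixl1, Eomes, Gsc and Lhx1) also differed between the lines on day 7. Their summed linear signal was 915 to 1364 in ES, 6432 to 9097 in GPSC-A and 4652 to 7431 in GPSC-B, from at most 177 on day 0, with all 4 detected in each line. Their part in the result was not tested.

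On day 28, 1 gene of the 28 was called higher and 1 lower, where 4.13% of all genes were called (1.69% higher, 2.44% lower). The fitted Rspo3 change was larger in the GPSC lines by 2.39 ± 0.49 (limma adjusted p = 0.003363). Day 28 values were 7.67 to 8.56 in GPSC and 7.58 and 7.20 in ES. The day 0 side of this difference rests on 4 GPSC arrays where Rspo3 was not detected, so the 2.39 is no measured difference. The Wif1 difference was -1.25 ± 0.36 (adjusted p = 0.04344). It rests on signals near background, with 5.90 and 5.38 in ES on day 28 and detection on 1 of these arrays, and leaving out single arrays ended the call in 10 of 12 cases. The replicate block added Rspo1 as a gene with a lower change in the GPSC lines (-1.67 ± 0.38, adjusted p = 0.00653 against 0.1519), for 3 calls.

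Untreated GPSC lines were also set against untreated ES cells. Of the 28 genes 1 was called higher and 1 lower, where 3.31% of all genes were called (1.64% higher, 1.67% lower). Rspo3 was at 6.29 and 7.12 in ES and between 4.66 and 5.99 in the GPSC lines, where 0 of 4 arrays detected it (at least 1.70-fold lower, adjusted p = 0.004022). Sfrp1 was at 7.63 and 6.80 in ES and between 8.24 and 8.78 in the GPSC lines (1.28 ± 0.36, adjusted p = 0.03864). Neither was called without ES day 0 replicate 2, and second probes gave -0.21 ± 0.35 for Rspo3 and -0.38 ± 0.38 for Sfrp1.

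Between E16 and PN1 hepatocytes, 3 of the 28 genes were called lower and 0 higher (limma; 1 higher at an unadjusted p under 0.05), where 23.8% of all genes were called (10.3% higher, 13.6% lower). These 3 are the only genes of the 28 detected on any hepatocyte array. The others had no detected signal in either stage, so the absence of a call says nothing about them. Wnt4 was at 11.27, 10.72 and 10.08 on the E16 arrays and at 5.02, 5.81 and 4.82 on the PN1 arrays, none of which detected it. It was at least 11.6-fold lower in PN1 (log2 -5.47 ± 0.37, adjusted p = 1.684e-12). A second Wnt4 probe gave -3.84 ± 0.42 (adjusted p = 1.82e-08).

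Fzd5 was detected in both stages, at 10.31, 10.77 and 11.22 in E16 and at 8.68, 8.52 and 9.11 in PN1. It fell by 1.99 ± 0.29 (log2, adjusted p = 2.316e-06), without overlap, while its second probe gave -0.51 ± 0.32 and was not called. Rspo3 was detected on 1 E16 array and on no PN1 array (6.64, 6.39 and 6.31 against 4.90, 5.04 and 4.64). It was called lower (adjusted p = 0.0003022), from values too near background for a bound, and not under median scaling (limma adjusted p = 0.08954).

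Markers of other cell types differed between the hepatocyte stages as well. Cholangiocyte and simple epithelium markers (Krt7, Krt19, Epcam and Sox9) summed to 4173 to 5245 in E16, with 3 of 4 detected and Epcam on no array, and to 115 to 223 in PN1, with 0 detected. Fibroblast, stellate or feeder markers summed to 8033 to 11628 in E16 and 3341 to 4380 in PN1, and leukocyte and Kupffer markers to 24038 to 27248 and 63115 to 72609. Hepatocyte markers summed to 84611 to 92854 in E16 and 17942 to 18867 in PN1. Their part in the Wnt4 result was not tested.

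Cultures of day 28 were set against E16 hepatocytes as the endpoint of the differentiation. Of the 28 genes 13 were called higher in the cultures and 1 lower, where 35.1% of all genes were called (19.6% higher, 15.4% lower). The 28 genes had a median difference of 0.65 (log2), beside 0.08 over all genes. By role, these were 6 of 12 ligands, 4 of 8 receptors, 2 of 3 R-spondins and 1 of 4 antagonists higher, and 1 receptor lower. Of the 28 genes, only Fzd5, Wnt4 and Rspo3 were detected on any hepatocyte array. The others passed the detection filter through cultures alone. An excess in the cultures was thus largely fixed by the filter, and these counts and the median only describe.

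Several genes were high on all 6 culture arrays and not detected on any E16 array. Wnt5a was at 10.06 to 11.79 on day 28 against 5.17, 4.62 and 5.63 in E16, at least 19.1-fold higher (adjusted p = 8.905e-16). Wnt7b was at least 11.9-fold higher, Sfrp1 at least 10.1-fold and Wnt6 at least 7.17-fold. Fzd2 was at least 6.22-fold higher and Fzd7 at least 5.74-fold. For each of these genes all culture arrays lay above all E16 arrays. Of the 28 genes 12 did not overlap between the groups. The share of all genes without overlap is not given here, and the 35.1% above counts calls, which is another measure.

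Smaller bounds were found for Fzd10 (at least 1.47-fold), Fzd8 (at least 1.18-fold) and Rspo1 (at least 1.09-fold). The other 2 probes of Fzd10 gave 0.46 ± 0.31 and 0.07 ± 0.28, which were not called. Rspo3 was called higher (adjusted p = 8.759e-05) against E16 values near background, 6.64, 6.39 and 6.31, which were detected on 1 of the 3 arrays. Wnt5b (adjusted p = 0.000196) and Wnt8b (adjusted p = 0.003192) were called higher from values too near background for a bound. The Fzd8 call was lost without E16 replicate 2 (0.83), among other arrays, and that of Wnt8b without GPSC-B day 28 replicate 2 (fitted change 0.89, from 1.18 ± 0.32).

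Wnt4 and Fzd5 were measured on both sides. Wnt4 was higher on day 28 by 1.47 ± 0.32 (adjusted p = 0.0002979), with the highest E16 array, 11.27, above the lowest culture array, 11.14. Fzd5 was lower by -1.91 ± 0.25 (adjusted p = 1.643e-07), with day 28 arrays at 8.58 to 9.29 and all E16 arrays above them. Median scaling shifted the median of all genes in this comparison to 0.56, and the Fzd5 difference was then -1.06 and not called (limma adjusted p = 0.05627), while its second probe gave -0.76 ± 0.27.

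The cultures and the hepatocytes also differed in their cell markers. Fibroblast, stellate or feeder markers summed to 61163 to 83110 on day 28 and surface ectoderm markers to 1020 to 7895, against 8033 to 11628 and 148 to 177 in E16. Hepatocyte markers summed to 1725 to 3453 on day 28, with Alb, Apob and Fgb on no array. Their part in these differences was not tested.

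**Figure D4:**
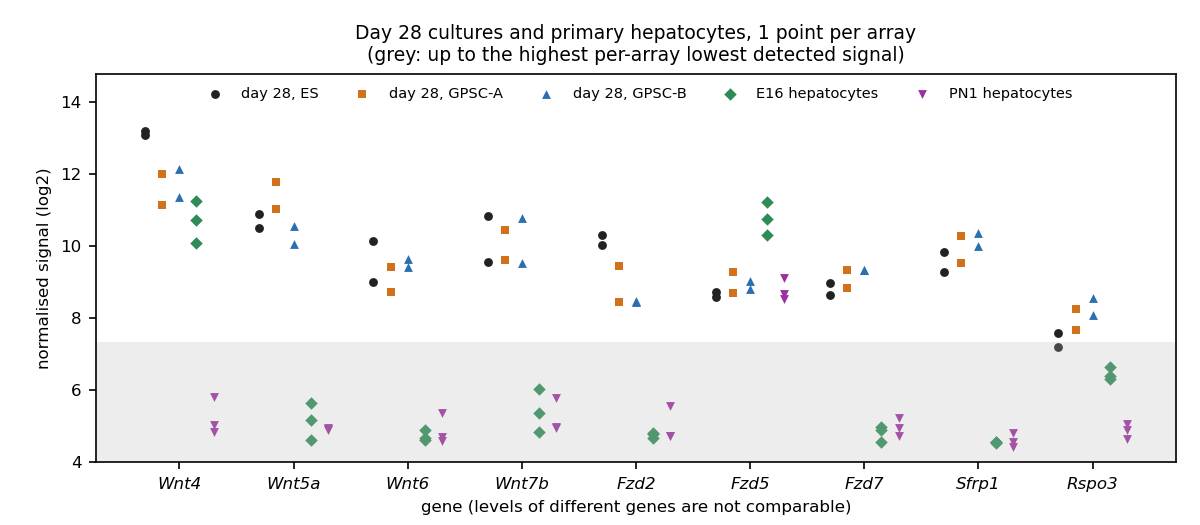
Normalised signal (log2) of 9 genes, 1 point per array, for day 28 cultures of the 3 lines (2 arrays each) and for E16 and PN1 hepatocytes (3 arrays each); the grey band ends at 7.33. Hepatocyte points lie in the band for all genes but Wnt4 (E16) and Fzd5 (both stages), and all culture points but 1 of Rspo3 in ES lie above it.

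Genes that act beside or after these proteins were read from 5 lists. Of 28 genes that are targets of Wnt signalling in other settings, 20 were tested. On day 2, 2 were lower and 0 higher (limma; 1 higher at an unadjusted p under 0.05). On day 7, 7 were higher and 1 lower, on day 14, 6 and 4, on day 21, 5 and 2, and on day 28, 6 and 1. The median change of the 20 was 0.40 on day 7 and -0.06 on day 28 (log2), beside 0.01 and 0.03 over all genes. The share of the list called was 10% on day 2, where 5.42% of all genes were called. It was 40% on day 7 and 50% on day 14, where 13.3% and 23.4% of all genes were. On days 21 and 28 it was 35%, near the 30.7% and 33.1% of all genes.

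Msx1, a homeobox gene, had the largest day 7 change of this list. It lay between 6.77 and 8.75 on day 0 and between 10.88 and 12.31 on day 7, and was back between 6.49 and 7.50 on day 28. The rise was 4.15 ± 0.23 (adjusted p = 3.787e-14). Nkd1, a feedback inhibitor inside the cell, rose by 2.36 ± 0.24 on day 7 and stayed up, at 3.0 ± 0.24 on day 28 (adjusted p = 1.375e-11), with arrays at 5.60 to 7.19 on day 0 and 8.88 to 9.79 on day 28. Apcdd1, a membrane-bound inhibitor, rose by 2.26 ± 0.29 on day 7 and 2.71 ± 0.29 on day 28. Other genes of the list were called lower. Cd44 changed by -4.27 ± 0.23 on day 2 and -1.79 ± 0.23 on day 14. Notum changed by -1.65 ± 0.27 on day 14 and -1.06 ± 0.27 on day 21, and was named here after its values were seen.

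Axin2, the feedback scaffold that is the usual readout of beta-catenin activity, rose on day 7 alone among the 5 days, by 1.46 ± 0.26 (adjusted p = 7.677e-05). It lay between 7.87 and 10.44 on day 0 and between 10.06 and 11.20 on day 7. In the difference of day 7 changes between GPSC and ES, 5 of the 20 tested genes of the list were called, 2 higher and 3 lower. These were 25% of the list, where 3.64% of all genes were called. Notum was higher by 2.69 ± 0.58, and Id2 (-2.29 ± 0.40) and Cd44 (-1.68 ± 0.48) were lower. The Axin2 rise was larger in the GPSC lines than in ES by 2.08 ± 0.56 (adjusted p = 0.02972). ES arrays stood at 10.44 and 9.84 on day 0 and at 10.36 and 10.06 on day 7, and untreated GPSC lines, at 7.87 to 9.08, were lower than untreated ES by -1.52 ± 0.40 (adjusted p = 0.02478). Against E16, where the arrays gave 5.02, 5.30 and 4.73 and none detected it, Axin2 was at least 5.49-fold higher on day 28 (adjusted p = 1.68e-11). Nkd1 was at least 6.90-fold and Apcdd1 at least 14.6-fold higher.

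**Figure D5:**
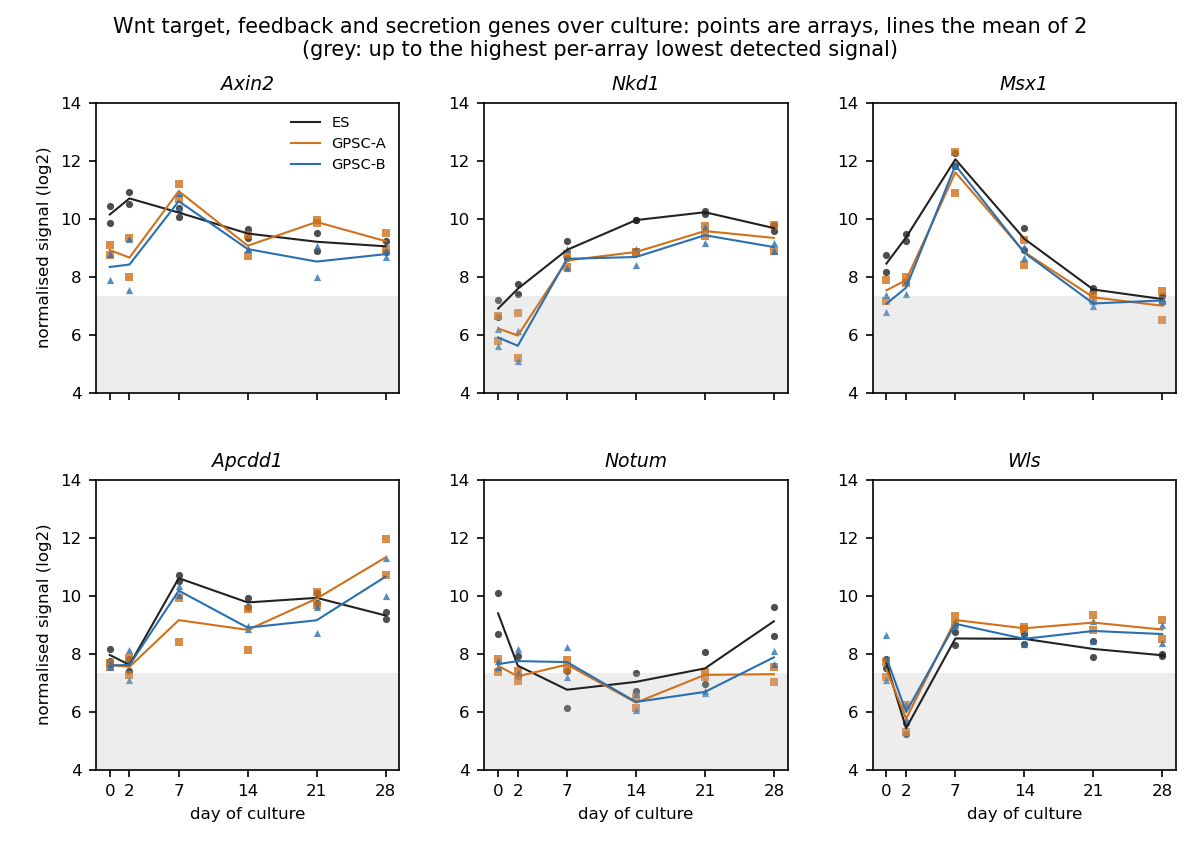
Normalised signal (log2) of the Wnt target and feedback genes Axin2, Nkd1, Msx1, Apcdd1 and Notum and of the secretion gene Wls against day of culture, 1 point per array and a line through the mean of 2 for each line; the grey band ends at 7.33. Msx1 peaks on day 7 in all lines, Nkd1 stays high after it, and Wls drops on day 2.

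Of 20 genes for Wnt secretion and other extracellular control, 13 were tested. On day 2, 3 of them were lower and 0 higher (limma; 0 higher also at an unadjusted p under 0.05). These were Wls, which carries Wnt proteins to the cell surface (-1.94 ± 0.30), Porcn, which attaches their lipid (-1.23 ± 0.20), and Serpinf1 (-2.55 ± 0.21). On day 7, 4 were higher and 1 lower, and on day 28, 4 and 1. The 3 called on day 2 were 23.1% of the list, where 5.42% of all genes were called, and the 5 on day 7 and on day 28 were 38.5%, where 13.3% and 33.1% were. Igfbp4 (4.09 ± 0.18) and the glypican Gpc3 (2.68 ± 0.15) rose on day 28. Between E16 and PN1, 4 were lower in PN1 (30.8% of the list, 23.8% of all genes). Among them were Gpc3 (-3.98 ± 0.21) and Porcn (at least 1.38-fold).

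For the beta-catenin pathway inside the cell, 30 of 34 genes were tested. On day 2, 0 were called (limma; 2 higher and 3 lower at an unadjusted p under 0.05). On day 7, 4 were higher and 2 lower, on day 14, 7 and 2, and on day 28, 3 and 5. These were 20%, 30% and 26.7% of the list, where 13.3%, 23.4% and 33.1% of all genes were called. On day 2, 5.42% of all genes were called. Tle4, a co-repressor of TCF/LEF factors, fell by 2.76 ± 0.19 on day 28 (log2). Its day 28 mean, 5.59, was near background, and 2 of 6 arrays detected it. The co-repressor Ctbp2 fell by 1.90 ± 0.20 on that day. Tle2, of the same family as Tle4, rose instead, by 2.81 ± 0.25 on day 14 and 1.15 ± 0.25 on day 28, from day 0 arrays of which 2 of 6 detected it; its day 28 value was chosen after it was seen. The co-activator Bcl9l was higher by 1.70 ± 0.42 on day 28. Between E16 and PN1 5 were higher and 3 lower in PN1 (26.7% of the list, near the 23.8% of all genes). Among them Tcf7l1, a TCF/LEF factor, was at least 4.49-fold lower.

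The list for planar polarity and alternative Wnt receptors had 16 of 21 genes tested. On day 2 the polarity gene Celsr3 was higher (1.0 ± 0.24), and Daam1 (-1.17 ± 0.17) and Camk2d (-1.27 ± 0.18), which act downstream of the receptors, were lower. On day 7, 3 were higher and 1 lower, on day 14, 5 and 1, and on day 28, 4 and 1. The share of the list called was 18.8% on day 2, where 5.42% of all genes were called. It was 25% on day 7 and 37.5% on day 14, where 13.3% and 23.4% of all genes were. On day 28 it was 31.2%, near the 33.1% of all genes. On day 14 the polarity gene Prickle2 rose by 2.87 ± 0.27 and the Wnt5a receptors Ror1 and Ror2 by 1.71 ± 0.20 and 1.44 ± 0.16. Against E16, 8 were higher on day 28 and 2 lower (62.5% of the list, 35.1% of all genes), with Ror2 at least 12.1-fold higher. Ror2 and Celsr2, among others, were detected on no hepatocyte array and passed the detection filter through cultures alone. The share against E16 therefore only describes.

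Of 21 genes that depend on Wnt signals in hepatocytes around the central vein, 11 were tested. Glul, Cyp2e1 and Cyp1a2, the usual marks of that zone, were below the detection filter. On day 28, 2 of the 11 were higher than on day 0 and 1 lower, and between E16 and PN1 3 were lower in PN1 and 0 higher (limma; 1 higher at an unadjusted p under 0.05). Both counts are 27.3% of the list, near the 33.1% and 23.8% of all genes called. Those lower in PN1 were Gulo (at least 1.69-fold lower), Gstm2 (-1.88 ± 0.27) and Cyp27a1 (-1.84 ± 0.36). Summed hepatocyte markers were also lower in PN1, as given above, and their part here was not tested. Kremen1, Kremen2, Notum, Tbx3, Rnf43, Axin2 and Lgr5 stand in more than 1 of the 5 lists.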

How the data were processed

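The members and gene lists were chosen with earlier results of these data known. RNA was purified with miRNeasy columns and copied into biotin-labelled cRNA with Ambion's MessageAmp kit, per the labels' protocols. The deposited scanner table holds 1 linear signal intensity per probe and array, without normalisation across arrays per the file headers. The detection p-value deposited by the authors sets each probe against its array's negative controls. The submitters' processing notes name GenomeStudio without a version. A deposited series matrix gives a processed intensity for the same arrays. How the authors normalised it is not stated in the sources used here, and it served as an alternative only.

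Of 45281 probes, 34885 had 1 gene symbol, 18 several and 10378 none. Probes detected at p under 0.01 on at least 2 arrays were kept (19251). The kept probe with the highest mean signal stood for a gene, which gave 10879 genes. The neqc function (limma 3.58.1, R 4.3.3) did normexp correction from the detection p-values, quantile normalisation and log2 transformation (offset 16). One limma model over 20 groups (22 residual degrees of freedom, eBayes) gave all changes and adjusted p-values, and it was tested on simulated data. For a gene undetected on all arrays of a group, the fold is a bound. It compares the mean of the group that detected it with a floor in the other, which on each array is the lowest signal of any detected probe or, where higher, the gene's own signal. The number of arrays limits the precision. Python 3.11.15 with matplotlib 3.10.9 drew the figures. Every member could be named, and up to 4 called genes per list and comparison by largest change. Glul, Cyp2e1 and Cyp1a2 were named after their values were seen.

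Replicate numbers from the labels were checked for pairing. Deviations of same-numbered arrays from their group means correlated at 0.244 to 0.379 in ES, 0.440 to 0.643 in GPSC-A and 0.324 to 0.591 in GPSC-B, over 15 pairs of days each, so the numbers pair the arrays within a line. In hepatocytes the 3 correlations were 0.006 to 0.0796, and no pairing was used. Alternatives were median scaling, no background correction, the series matrix, other detection filters, the mean of probes, array weights, the fit on a comparison's own groups, a replicate block and leaving out each array.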

Additional observations from a re-analysis of the deposited data

Results flagged for a closer look

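Between the GPSC lines and ES cells, 6 differences in change passed the test of the difference itself (limma, called as above). On day 7 these were Wnt6 (GPSC minus ES, 3.29), Wnt10b (2.60), Fzd5 (2.44) and Rspo3 (1.70). The Wnt10b value rests on day 0 GPSC and day 7 ES arrays that did not detect it. On day 28 they were Rspo3 (2.39) and Wif1 (-1.25), the last near background. Each Rspo3 value rests on day 0 GPSC arrays that did not detect Rspo3.

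In 3 further cases every ES array moved one way from day 0 and every GPSC array the other, and the difference was not tested. These were Wnt8a on day 2 (-2.16), Fzd5 on day 14 (3.30) and Wnt10b on day 21 (1.45), where most Wnt10b arrays are near background.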

How the results depend on the processing

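Of 1417 recomputed values of called members, 1305 kept their direction and call, 112 lost the call and 0 turned. Without background correction the members called were 2 on day 2 (5 as reported), 7 on day 7 (11), 7 on day 14 (11), 6 on day 21 (10), 8 for day 28 against E16 (14) and 0 between lines at day 0 (2). With the series matrix they were 3 on day 2, 7 on day 14, 6 on day 21, 9 for day 28 against E16 and 0 at day 0. The day 28 interaction (2) gave 1 with array weights, detection on 6 arrays or median scaling and 0 on its own groups. The day 0 comparison gave 1 with array weights, median scaling or no detection filter and 0 on its own groups. The cause was not tested. Leaving out single arrays gave 5 to 6 on day 2, 11 to 12 on day 7, 10 to 12 on day 14, 10 to 11 on day 21, 8 to 9 on day 28, 3 to 4 for PN1, 13 to 15 for day 28 against E16, 3 to 5 and 1 to 3 for the interactions and 0 to 3 at day 0.

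With the replicate block within lines, 5, 11, 11, 10 and 9 members were called on the 5 days, 3 for PN1, 14 for day 28 against E16 and 5, 3 and 2 between lines. No member call was lost. For 12 genes, 14 other kept probes could be set beside the probe used, in 56 pairs with a called value. The other probe was called the same way in 38 pairs, the opposite way in 0 and not called in 18. Not every other probe is given above, and those of Wnt6, Wnt7b and Wnt8a are not. Signals in the lowest range carry no order, and 17 of the 45 genes were not tested.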
